A study of Arabidopsis thaliana with 6 samples.

Results

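Abscisic acid (ABA) is the plant hormone of drought and seed dormancy, and it is also drawn into the responses of leaves to microbes. It is made from carotenoids: a 9-cis-epoxycarotenoid dioxygenase (NCED) cleaves the carotenoid in the plastid in the step that usually limits synthesis, and NCED3 is the main drought-induced enzyme of this kind in Arabidopsis leaves. Protein phosphatases 2C (PP2C) of clade A hold the pathway off by removing phosphate from SnRK2 protein kinases. ABA bound to its receptors (PYR1 and the PYL proteins) captures and inhibits these phosphatases, which frees the kinases to act on transcription factors and ion channels, and many PP2C genes are themselves switched on by ABA as a negative feedback.

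Of 28259 loci in the files, 9 are described here: NCED3 and the PP2C genes ABI1, ABI2, HAB1, HAB2, HAI1, HAI2, HAI3 and PP2CA. They were selected by locus code, and the rule holds no measured value. ABI1 and ABI2 are named for ABA-insensitive mutants, HAB1 and its close relative HAB2 for hypersensitivity to ABA when lost, and the HAI genes for their strong induction by ABA. AHG1, the remaining clade A gene, was used only for context.

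RNA-seq was made from whole seedlings of Arabidopsis thaliana, ecotype Columbia (Col-0), all 10 days old and with no mutation or transgene named in the labels. They had grown in short days of 10 h light and 14 h dark, and they were left in water under light for a night before treatment. They then received 3-hydroxydecanoic acid (3-OH-C10:0), a bacterial medium-chain 3-hydroxy fatty acid that Arabidopsis senses through the receptor kinase LORE, or the solvent dimethyl sulfoxide (DMSO) as control, and were collected 8 h later, with 3 libraries in each group. The labels give the dose as 5 microM in one field and as 5 mM in another, so the concentration is not settled here. The series concerns immune production of reactive oxygen by the kinase RIPK and the malic enzyme NADP-ME2, and the comparison here asks how the ABA genes stood in treated against control seedlings.

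The estimated counts summed to between 18064723 and 27131500 per library, and 3 counts in a library came to 0.111 to 0.166 CPM (counts per 1e6). Of 19768 genes that passed a filter on low counts, 71.4% differed between the groups at an adjusted p under 0.05, with 35.6% higher and 35.8% lower in treated seedlings, and the median log2 fold change was -0.04. The CPM values of the groups did not overlap for 75.9% of tested genes. These shares are the background against which the counts of the members and of every other list are read. Treated replicate 3 stood apart from the other treated libraries, with a mean chi-square per gene of 23.3 and 23 against them, compared with 4.81 between those 2 libraries and 6.17 to 13.4 between DMSO libraries. Nothing in the labels says whether the libraries came from separate cultures, so p-values measure the spread between these libraries only.

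Of the 9 genes, 7 passed the filter. NCED3, ABI1, HAB1, HAB2 and HAI1 rose, none fell, and ABI2 and PP2CA did not pass the test of edgeR's quasi-likelihood fit. HAI2 and HAI3 had too few counts to be tested. The median log2 fold change over the 7 tested genes was 0.65. With 35.6% of all tested genes called higher, 5 called genes of this kind is a description and is not claimed as particular to them. The filter asked for 0.485 unscaled CPM in at least 3 libraries, which 1 DMSO library of NCED3 and 2 of HAI1 reached, so both passed only with their treated libraries counted.

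**Figure D1:**
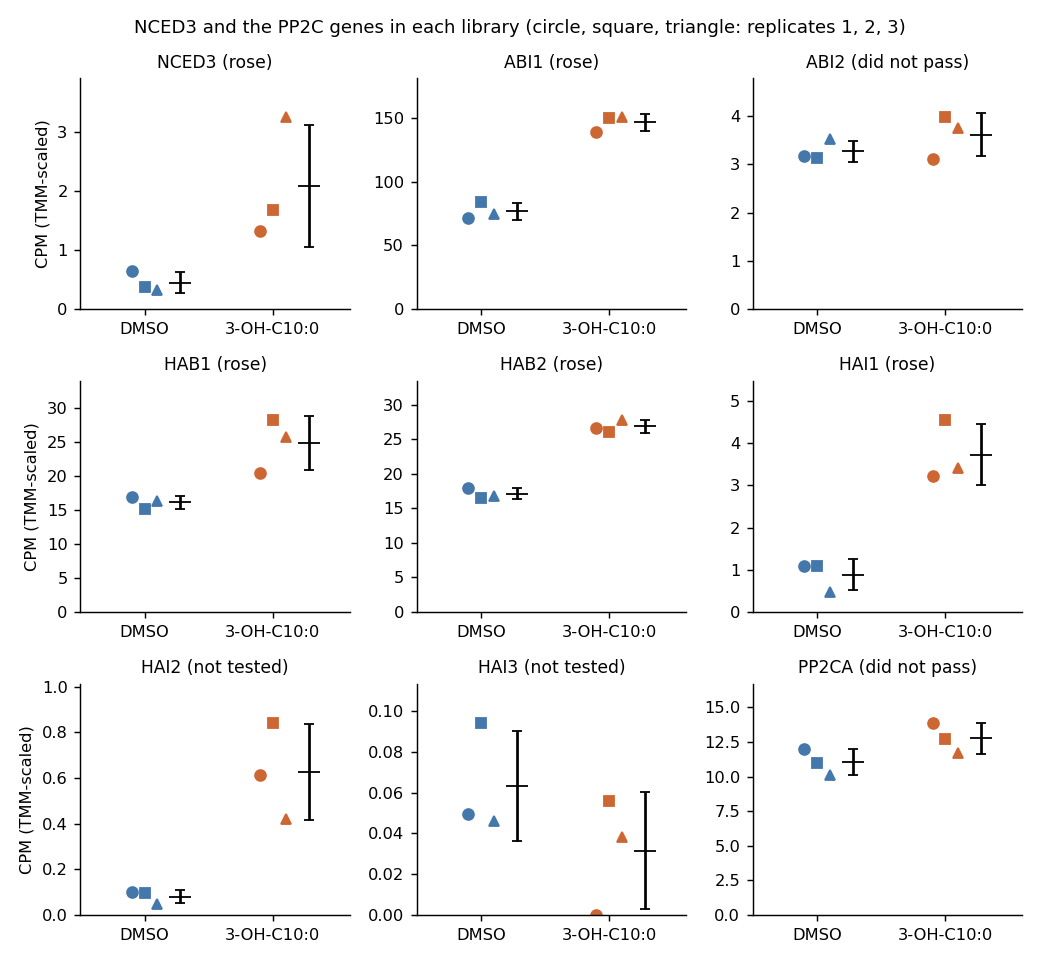
Abundance of NCED3 and each PP2C gene in CPM after TMM scaling (linear axes from 0, scaled separately per gene), with 1 symbol per library and replicate number and the group mean ± SD (n = 3) beside them. The treated libraries lie above all DMSO libraries for NCED3, ABI1, HAB1, HAB2, HAI1 and HAI2, and the groups overlap for ABI2, HAI3 and PP2CA.

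NCED3 (AT3G14440), which lies on chromosome 3 (4831286 to 4834015, minus strand, TAIR10.1) as a single exon, had 0.644, 0.378 and 0.324 CPM in DMSO libraries 1 to 3 and 1.32, 1.68 and 3.25 CPM in treated libraries 1 to 3. Every treated library exceeded every DMSO library, and the highest value was in treated replicate 3. NCED3 rose 4.73-fold (log2 fold change 2.24 ± 0.428 SE, edgeR adjusted p = 7.8e-04, n = 3 per group). The gene was sparsely sampled, with 13, 8 and 7 counts in DMSO and 26, 30 and 85 counts in treated libraries. Without treated replicate 3 the log2 fold change was 1.74 and the adjusted p 0.00238. On the log2(FPKM + 1) scale, where low genes are compressed, the log2 fold change was 0.62 and still passed with limma.

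The other NCED genes were close to absent, so NCED3 gave most of the counts of the NCED genes listed. NCED2 had 2 counts over the DMSO libraries and 9 over the treated libraries, NCED5 had 1 and 7, NCED6 had none in either group, and NCED9 had 2 and 1. None of these was tested.

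ABI1 (AT4G26080) was the most abundant of the 9 genes. Its level was 71.8, 84.1 and 74.4 CPM in DMSO libraries 1 to 3 and 139, 150 and 151 CPM in treated libraries 1 to 3, with no overlap and little spread within either group. ABI1 rose 1.91-fold (log2 fold change 0.93 ± 0.0877 SE, edgeR adjusted p = 3.8e-06). The gene lies on chromosome 4 (13219915 to 13222376, minus strand) and its end overlaps that of MEK1, a mitogen-activated protein kinase kinase gene on the opposite strand, by 22 bases. MEK1 went from 4.06, 4.06 and 5 CPM in DMSO to 15.9, 14.8 and 16.3 CPM in treated libraries, and as no source used here states whether the libraries kept strand, reads in the shared bases cannot be assigned to one gene with certainty.

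ABI2 (AT5G57050), the closest relative of ABI1, was low in both groups. It had 3.17, 3.12 and 3.52 CPM in DMSO and 3.11, 3.98 and 3.75 CPM in treated libraries, and the groups overlapped. Its log2 fold change of 0.14 ± 0.175 SE did not pass (edgeR adjusted p = 0.476). ABI2 lies on chromosome 5 (23087122 to 23089631, plus strand).

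HAB1 and HAB2 both rose, by similar amounts. HAB1 (AT1G72770, chromosome 1, 27389948 to 27393327, plus strand) had 17, 15.1 and 16.4 CPM in DMSO and 20.5, 28.3 and 25.8 CPM in treated libraries, a 1.54-fold rise (log2 fold change 0.62 ± 0.121 SE, edgeR adjusted p = 8.5e-04). HAB2 (AT1G17550, chromosome 1, 6034270 to 6037398, plus strand) had 18, 16.5 and 16.8 CPM in DMSO and 26.6, 26.1 and 27.8 CPM in treated libraries, a 1.57-fold rise (log2 fold change 0.65 ± 0.0841 SE, edgeR adjusted p = 4.4e-05). The treated libraries of HAB1 were more spread than those of HAB2, with treated replicate 1 the lowest, and for neither gene did the groups overlap.

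Among the HAI genes, HAI1 and HAI2 were higher in treated seedlings and HAI3 was near the detection limit. HAI1 (AT5G59220), a phosphatase that also acts on immune mitogen-activated protein kinases, lies on chromosome 5 (23894404 to 23896939, minus strand). It had 1.09, 1.09 and 0.463 CPM in DMSO and 3.21, 4.55 and 3.41 CPM in treated libraries, and rose 4.21-fold (log2 fold change 2.07 ± 0.304 SE, edgeR adjusted p = 1.1e-04). The lowest HAI1 value was DMSO replicate 3, and the groups were well apart. On the log2(FPKM + 1) scale its log2 fold change was 1.05, which passed with limma.

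HAI2 (AT1G07430, chromosome 1, 2280746 to 2282828, minus strand) had 2, 2 and 1 counts in DMSO libraries and 12, 15 and 11 counts in treated libraries, or 0.099, 0.0944 and 0.0463 CPM against 0.611, 0.842 and 0.421 CPM. Every treated library held more counts than every DMSO library, yet the filter left the gene out of the test. Where HAI2 was tested, without the filter, its log2 fold change was 2.86 ± 0.626 SE (edgeR adjusted p = 0.00121). It also entered the test when any DMSO library or treated replicate 3 was left out, with log2 fold changes between 2.57 and 3.09 and adjusted p between 8.6e-04 and 0.00668. In those 4 fits HAI2 passed the filter only through the treated libraries, where it was high, so they and the count of 6 risen members that they give are a description.

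HAI3 (AT2G29380, chromosome 2, 12608675 to 12610350, plus strand) had 1, 2 and 1 counts in DMSO and 0, 1 and 1 counts in treated libraries. The ratio of treated to DMSO counts, corrected for depth, was 0.467 with a 95% counting interval from 0.0422 to 3.26, so no change of HAI3 was detectable at this depth. The interval covers counting error only. AHG1 was as sparse, with 3 counts over the DMSO and 6 over the treated libraries.

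PP2CA (AT3G11410), a strong brake on ABA signalling in seeds and guard cells, lies on chromosome 3 (3583782 to 3585850, minus strand). It had 12, 11 and 10.1 CPM in DMSO and 13.9, 12.7 and 11.7 CPM in treated libraries. The ranges touched, since the lowest treated library was below the highest DMSO library, and the log2 fold change of 0.21 ± 0.115 SE did not pass (edgeR adjusted p = 0.131).

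The promoters of 5 of the 9 genes are printed, the 3 with no match and the 2 with the most matches to the motif that ABA-responsive transcription factors recognise, the ABRE core ACGTG. Each is the 300 bases before the annotated gene start, read 5′ to 3′ on the gene's own strand from TAIR10.1 as given by RefSeq. Capitals mark the ABRE core and the W-box (TTGACC or TTGACT, the core bound by WRKY factors), both searched on both strands.
NCED3 promoter, chr3:4834016-4834315, minus strand: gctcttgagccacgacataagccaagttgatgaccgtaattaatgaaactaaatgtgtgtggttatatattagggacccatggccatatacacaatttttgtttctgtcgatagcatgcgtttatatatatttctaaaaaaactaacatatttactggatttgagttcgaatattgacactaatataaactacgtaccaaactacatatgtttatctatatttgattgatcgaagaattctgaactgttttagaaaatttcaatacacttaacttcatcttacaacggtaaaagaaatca
HAI1 promoter, chr5:23896940-23897239, minus strand: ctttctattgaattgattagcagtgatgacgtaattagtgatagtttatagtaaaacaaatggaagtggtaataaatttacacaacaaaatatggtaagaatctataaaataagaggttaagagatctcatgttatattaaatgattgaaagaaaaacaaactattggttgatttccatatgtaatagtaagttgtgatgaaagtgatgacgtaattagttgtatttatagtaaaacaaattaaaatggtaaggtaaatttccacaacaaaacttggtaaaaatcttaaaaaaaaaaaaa
ABI2 promoter, chr5:23086822-23087121, plus strand: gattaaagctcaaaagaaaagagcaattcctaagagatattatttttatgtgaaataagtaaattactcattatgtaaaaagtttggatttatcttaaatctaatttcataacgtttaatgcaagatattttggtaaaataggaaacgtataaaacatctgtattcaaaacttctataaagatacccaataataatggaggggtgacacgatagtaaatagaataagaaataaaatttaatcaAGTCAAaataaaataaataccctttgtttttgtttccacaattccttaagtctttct
HAI2 promoter, chr1:2282829-2283128, minus strand: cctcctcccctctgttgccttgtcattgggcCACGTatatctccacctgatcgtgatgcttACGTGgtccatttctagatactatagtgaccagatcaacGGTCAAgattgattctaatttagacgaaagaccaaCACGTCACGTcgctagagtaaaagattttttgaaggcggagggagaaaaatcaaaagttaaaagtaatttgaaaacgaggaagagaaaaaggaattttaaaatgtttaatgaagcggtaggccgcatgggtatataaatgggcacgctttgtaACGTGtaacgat
PP2CA promoter, chr3:3585851-3586150, minus strand: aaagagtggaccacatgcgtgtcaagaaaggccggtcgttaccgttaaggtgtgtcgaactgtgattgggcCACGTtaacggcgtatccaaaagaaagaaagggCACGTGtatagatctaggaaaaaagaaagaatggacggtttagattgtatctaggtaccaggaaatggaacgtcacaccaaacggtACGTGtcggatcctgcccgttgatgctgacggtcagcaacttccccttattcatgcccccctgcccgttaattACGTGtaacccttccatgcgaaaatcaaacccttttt
Neither motif was found in the windows of NCED3 and HAI1, which had the largest fold changes among the tested members. ABI2, which did not pass the test, held no ABRE core and 1 W-box. HAI2 held 5 ABRE cores and 1 W-box, and PP2CA, which did not pass the test, also held 5 ABRE cores.

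Over all 9 genes, 6 windows held an ABRE core, against 25.6% of 27443 promoter windows of the same length. The first base of a core lay at -286 in ABI1, -19 in HAB1, -214 and -23 in HAB2, and -118 and -35 in HAI3, counted from the gene start, and ABI2 held none. The 2 cores of PP2CA that start at -196 and -195 are a single G-box (CACGTG) read on both strands, the only G-box among the 9 windows, against 7.09% of all promoters. A W-box was in 3 windows, those of ABI2, HAB2 and HAI2, against 32.3% of all promoters. The DRE core CCGAC of cold and drought genes occurred once, in PP2CA, against 13.9%, and the GCC box GCCGCC in none, against 2.26%. The run ACGTGTAA, searched after the windows had been read, was in the windows of HAI2, HAI3 and PP2CA at -12, -35 and -37, and in 1.24% of all promoters. A match is a run of letters and not a site shown to be bound, and a window without one says nothing about the factor.

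**Figure D2:**
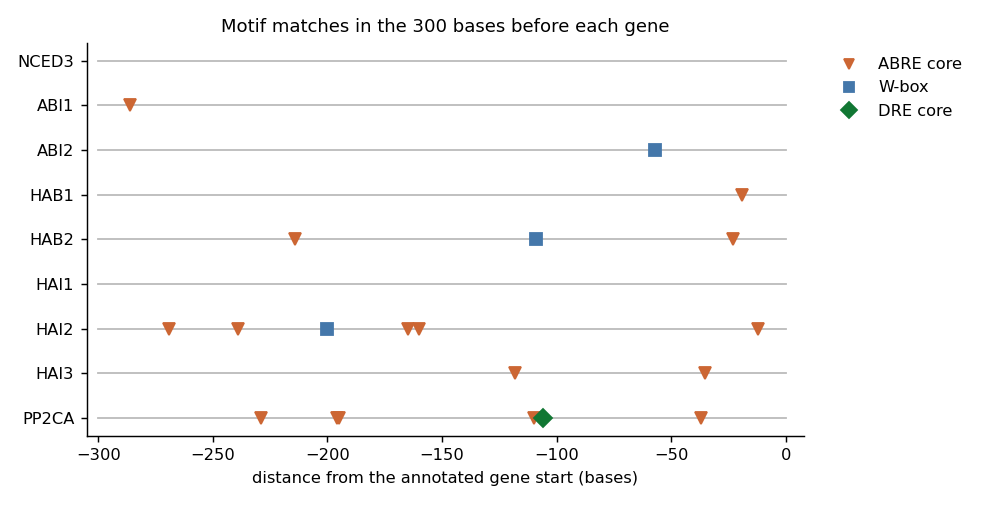
Positions of the ABRE core, the W-box and the DRE core in the 300 bases before each gene, with distance from the annotated gene start in bases on the x axis and 1 line per gene. HAI2 and PP2CA hold 5 ABRE cores each, whereas NCED3 and HAI1, both of which rose, hold none of the 3 motifs.

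Per length, ABI1 was far above the rest. In the authors' FPKM (fragments per kilobase of transcript, scaled to library depth), the order of levels in DMSO was ABI1 at 38.9 ± 2.58 (SD, n = 3), HAB2 at 7.21 ± 0.438, PP2CA at 6.95 ± 0.643, HAB1 at 6.51 ± 0.543, ABI2 at 1.62 ± 0.128, HAI1 at 0.553 ± 0.229, NCED3 at 0.2 ± 0.0781, HAI3 at 0.05 ± 0.0173 and HAI2 at 0.0467 ± 0.0153. The neighbours HAB2 and PP2CA, PP2CA and HAB1, HAI1 and NCED3, and HAI3 and HAI2 overlapped and are not ordered by these data. In treated seedlings the order was ABI1 at 70.1 ± 3.72, HAB2 at 10.7 ± 0.256, HAB1 at 9.42 ± 1.6, PP2CA at 7.57 ± 0.661, HAI1 at 2.22 ± 0.466, ABI2 at 1.69 ± 0.229, NCED3 at 0.877 ± 0.427, HAI2 at 0.333 ± 0.121 and HAI3 at 0.0233 ± 0.0208. The neighbours HAB2 and HAB1, HAB1 and PP2CA, and HAI1 and ABI2 overlapped there. HAI1 stood below ABI2 in every DMSO library and overlapped it after treatment, and HAI2 moved from overlap with HAI3 to above it.

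The summed FPKM of the 8 PP2C genes was 61.5, 63.6 and 60.4 in DMSO libraries and 95.9, 107 and 103 in treated libraries. The sum was thus 61.8 ± 1.63 (SD, n = 3) against 102 ± 5.66, and the groups did not overlap. An exact two-sided permutation test gave p = 0.1, the smallest value that 3 against 3 libraries allow, so no sum or ratio given here can pass 0.05. Without ABI1 the sum was 22.9 ± 1.47 against 31.9 ± 2.15.

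ABI1 made up most of the pool in both groups. Its share was 60%, 65.7% and 62.9% in DMSO and 68.7%, 68% and 69.5% in treated libraries. HAI1 took 0.891% ± 0.358 (SD, n = 3) of the pool in DMSO and 2.16% ± 0.352 after treatment, without overlap. PP2CA took 11.2% ± 1.05 and 7.45% ± 0.965, and ABI2 2.63% ± 0.272 and 1.65% ± 0.135, both lower in every treated library. The shares of HAB1 (10.6% and 9.2%) and HAB2 (11.7% and 10.5%) overlapped between the groups. HAI2 and HAI3 stayed under 1% in every library.

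**Figure D3:**
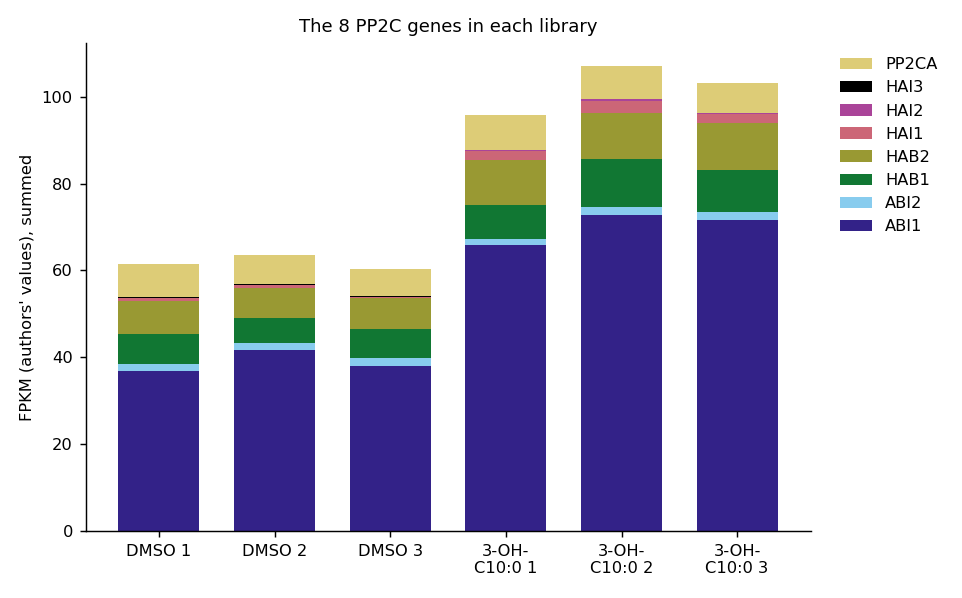
Summed FPKM of the 8 PP2C genes in each library as stacked bars from 0, with 1 colour per gene. The bars of the treated libraries reach 95.9 to 107 against 60.4 to 63.6 in DMSO, and the ABI1 segment is the largest in all 6 libraries.

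Pairs of the PP2C genes, not all of them close relatives, were compared within each library by the log2 ratio of their FPKM, with a pseudocount of 0.1, for 7 pairs. The log2 ratio of ABI1 to ABI2 was 4.45, 4.7 and 4.36 in DMSO and 5.42, 5.19 and 5.28 in treated libraries, a difference of 0.80 (exact permutation p = 0.1, Benjamini-Hochberg 0.175 over the 7 pairs). The ratio of ABI1 to PP2CA likewise differed without overlap, by 0.73, with the same p-values. The HAI1 to HAI3 ratio differed by 2.17 and the HAI2 to HAI3 ratio by 1.82, again with those p-values. HAI3 had 0 to 2 counts per library and HAI2 had 1 to 2 per DMSO library, with FPKM below the pseudocount. The size of both differences therefore depends on the pseudocount, and with one of 1 they were 1.09 and 0.38.

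The pairs HAB1 and HAB2, HAI1 and HAI2, and HAB1 and ABI1 overlapped between the groups. The HAB1 to HAB2 ratio differed by -0.04 on the log2 scale (exact permutation p = 0.8), HAI1 to HAI2 by 0.35 (p = 0.5 by exact permutation, adjusted 0.583), and HAB1 to ABI1 by -0.33 (p = 0.2 by exact permutation, adjusted 0.28). With 3 libraries a group, these p-values do not show that the relatives moved alike.

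The steps of synthesis around NCED3 moved in both directions. Among 11 other synthesis genes 7 were tested, of which 3 rose, 2 fell and 2 did not pass, with a median log2 fold change of 0.21. The carotenoid steps before cleavage were mixed. BCH1, the main beta-carotene hydroxylase, fell from 66.7, 66.4 and 67 CPM to 31.4, 27.4 and 40.7 CPM (to 0.499 times its DMSO level, edgeR adjusted p = 5.1e-05). Its paralog BCH2 rose from 0.545, 0.567 and 0.51 CPM to 3.46, 5.72 and 3.79 CPM (log2 fold change 2.98, edgeR adjusted p = 3.9e-06, or 1.62 on log2(FPKM + 1)). ZEP, the zeaxanthin epoxidase, fell (log2 fold change -1.16, edgeR adjusted p = 1.4e-04). Where the 2 hydroxylases are compared in CPM, BCH1 remained the higher in every library.

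Of the steps after cleavage, AAO3 and ABA3 rose and ABA2 did not pass. AAO3, the oxidase that makes ABA from abscisic aldehyde, rose from 24.7, 34.5 and 30 CPM to 129, 154 and 116 CPM (4.47-fold, edgeR adjusted p = 7.4e-07). ABA3, the molybdenum cofactor sulfurase that AAO3 needs, rose from 6.73, 5.9 and 7.09 CPM to 22, 23.2 and 23.5 CPM (3.48-fold, edgeR adjusted p = 1.1e-07). ABA2, which makes the aldehyde, had a log2 fold change of 0.21 (edgeR adjusted p = 0.307). ABA4, of neoxanthin synthesis before cleavage, had one of -0.05 (edgeR adjusted p = 0.702).

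Breakdown and conjugation genes were also mixed, with 4 of 8 higher, 2 lower and 2 that did not pass. The CYP707A genes encode ABA hydroxylases, which inactivate the hormone. CYP707A1 rose 2.6-fold and CYP707A4 3.28-fold (edgeR adjusted p = 2.5e-04 and 2.9e-04, with log2 fold changes of 0.62 and 0.78 on log2(FPKM + 1)), whereas CYP707A2 fell from 16.2, 23.4 and 16.1 CPM to 9.22, 9.71 and 5.78 CPM (log2 fold change -1.19, edgeR adjusted p = 0.00153). CYP707A3 had a log2 fold change of 0.62 (edgeR adjusted p = 0.051), and passed under 6 of the alternatives tried, among them the fits without DMSO replicate 3 (adjusted p = 0.0151) and without treated replicate 2 (0.02). UGT71B6, which glucosylates ABA, rose from 5.05, 5.62 and 5.98 CPM to 28.9, 32.5 and 30.2 CPM (5.49-fold, edgeR adjusted p = 1.0e-08), and UGT71C5, a related glucosyltransferase, rose 1.8-fold (edgeR adjusted p = 2.2e-05). BGLU18, which releases ABA from its glucose ester, fell from 61.1, 33.7 and 38.9 CPM to 9.68, 11.9 and 10.1 CPM (log2 fold change -2.08, edgeR adjusted p = 1.6e-04), and BGLU33 had a log2 fold change of -0.11 (edgeR adjusted p = 0.419).

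The summed FPKM of the 4 CYP707A genes was 11.7, 14.8 and 12.5 in DMSO and 10.9, 10 and 8.65 in treated libraries, lower in each treated library (exact permutation p = 0.1). CYP707A2 gave most of the sum in DMSO, with a mean of 10.2 FPKM there and 4.26 in treated libraries. The means of CYP707A1, CYP707A3 and CYP707A4 were higher in treated libraries, so the lower sum does not hold for the family gene by gene. The log2 ratio of NCED3 to the CYP707A sum was -5.34, -6.53 and -6.38 in DMSO and -4.3, -3.8 and -2.67 in treated libraries, a difference of 2.49 (exact permutation p = 0.1). Without treated replicate 3 the difference was 2.03. NCED3 thus stayed below the CYP707A sum in all 6 libraries.

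All 4 transport genes rose, with a median log2 fold change of 2.43, where 35.6% of all tested genes rose. ABCG40, an importer of ABA, went from 0.693, 0.803 and 0.417 CPM to 165, 134 and 171 CPM, a 244-fold rise (log2 fold change 7.93 ± 0.184 SE, edgeR adjusted p = 2.5e-10). ABCG40 passed the filter only with its treated libraries counted, so its rise is a description. DTX50, an exporter, rose from 1.14, 1.37 and 1.62 CPM to 19.1, 16.7 and 24.1 CPM (14.5-fold, edgeR adjusted p = 2.6e-08). On the log2(FPKM + 1) scale the log2 fold changes of ABCG40 and DTX50 were 4.90 and 2.72, and on log2(FPKM + 0.1) that of ABCG40 was 7.11. ABCG25, also an exporter, rose 2-fold (edgeR adjusted p = 4.5e-05). The importer NPF4.6 rose 1.23-fold (edgeR adjusted p = 0.0301), and that call was lost without DMSO replicate 1 or 3 or treated replicate 2 or 3 (adjusted p between 0.0579 and 0.102), with total-count scaling (0.0805) and with limma on either FPKM scale (0.0853 and 0.086), which leave 3 of the 4 genes higher. The change of ABCG40 was thus far larger than that of any of the 9 genes described here.

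Of 14 ABA receptors, 10 were tested, of which 2 rose, 3 fell and 5 did not pass, and the median log2 fold change was 0.04. PYR1 fell from 56.9, 64.7 and 59.5 CPM to 33.3, 30.3 and 35.4 CPM (log2 fold change -0.87, edgeR adjusted p = 6.6e-06), and PYL8 fell from 132, 147 and 149 CPM to 84.7, 81 and 95.3 CPM (log2 fold change -0.71, edgeR adjusted p = 4.0e-05). PYL9 fell as well (log2 fold change -0.49). PYL1 rose (log2 fold change 0.54), and PYL7 rose (log2 fold change 0.75, edgeR adjusted p = 0.017, but 0.0501 without DMSO replicate 2). PYL4 and PYL5, among the most abundant receptors, had log2 fold changes of -0.03 and 0.11 and did not pass (edgeR adjusted p = 0.797 and 0.308).

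Set against their receptors, the phosphatase transcripts were more abundant after treatment. The summed FPKM of the 14 receptors was 521, 530 and 519 in DMSO and 464, 432 and 439 in treated libraries. The log2 ratio of the PP2C sum to the receptor sum was -3.08, -3.06 and -3.1 in DMSO and -2.28, -2.01 and -2.09 in treated libraries, a difference of 0.96 (exact permutation p = 0.1). Receptor transcripts exceeded phosphatase transcripts in every library. Transcript sums say nothing about protein amounts or binding.

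**Figure D4:**
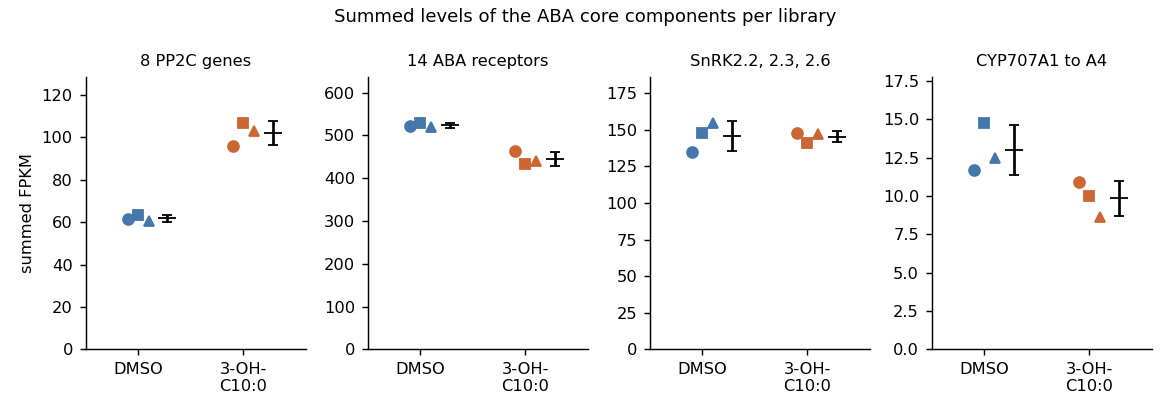
Summed FPKM per library for the 8 PP2C genes, the 14 receptors, the 3 ABA-activated SnRK2 kinases and the 4 CYP707A genes (linear axes from 0), with 1 symbol per library and replicate and the group mean ± SD (n = 3). The PP2C sum was higher and the receptor and CYP707A sums lower in every treated library, and the kinase sums overlapped. Of the CYP707A genes only CYP707A2 had a lower mean in treated libraries.

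The SnRK2 kinases, the substrates of the PP2Cs, moved in both directions. Of 10 genes, 4 rose, 2 fell and 4 did not pass, with a median log2 fold change of 0.20. The 3 strongly ABA-activated kinases moved differently. SNRK2.3 fell (log2 fold change -0.41, edgeR adjusted p = 0.0043), and SNRK2.6, the guard cell kinase OST1, rose (log2 fold change 0.33, edgeR adjusted p = 0.024). SNRK2.2 had a log2 fold change of 0.20 (edgeR adjusted p = 0.0668). It passed as higher without DMSO replicate 2 (edgeR adjusted p = 0.0461), with RLE scaling (0.0432) and with DESeq2 (0.045). The call of SNRK2.6 was lost without DMSO replicate 2 or treated replicate 1 or 2, with total-count scaling (adjusted p = 0.095) and with limma on either FPKM scale (0.124 and 0.125). Their summed FPKM was 135, 148 and 155 in DMSO and 148, 141 and 147 in treated libraries, which overlapped (exact permutation p = 0.8). SNRK2.1 fell (log2 fold change -0.61), and SNRK2.4 and SNRK2.9 rose (log2 fold changes 0.71 and 0.77).

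Of 7 ABA transcription factors, 5 were tested, of which 3 rose and 2 did not pass, where 35.6% of all tested genes rose. ABI5, a bZIP factor best known from seeds, rose from 3.71, 2.69 and 3.1 CPM to 7.23, 6.62 and 7.73 CPM (2.28-fold, edgeR adjusted p = 6.4e-05). The bZIP factors ABF4 and ABF2, which bind the ABRE, rose 1.66-fold and 1.47-fold (edgeR adjusted p = 5.3e-05 and 0.00103). ABF1 and ABF3 had log2 fold changes of -0.22 and 0.29 (edgeR adjusted p = 0.0811 and 0.0633). ABF1 passed as lower without treated replicate 2 (edgeR adjusted p = 0.0327), with total-count scaling (0.0299) and with limma on either FPKM scale (0.0352 and 0.036). ABF3 passed as higher without treated replicate 3 (edgeR adjusted p = 0.00411), with RLE scaling (0.0484) and with the replicate block (0.0482).

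The usual ABA-induced genes did not move in 1 direction. Of 22, 19 were tested, of which 5 rose, 7 fell and 7 did not pass, and the median log2 fold change was -0.24. RD20, which rose, passed the filter only with its treated libraries counted. COR15A, COR15B and RD29B, which fell, passed it only with their DMSO libraries counted, so these calls are a description. ERD10, a dehydrin, fell from 37.9, 33.3 and 31.9 CPM to 18.5, 21.4 and 17.3 CPM (log2 fold change -0.85, edgeR adjusted p = 3.0e-05). COR15B, a chloroplast cold protein, and AFP2, a regulator of ABI5, fell (log2 fold changes -1.96 and -0.89, the former -1.23 on log2(FPKM + 1)). COR15B has a near copy, COR15A, so its counts depend on how shared reads were divided. RD29A, a standard reporter of ABA and cold, fell from 19.6, 14.5 and 14.1 CPM to 5.19, 9.2 and 8.84 CPM (log2 fold change -1.05, edgeR adjusted p = 0.00258).

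On the other side, AFP3 rose 2.6-fold (edgeR adjusted p = 4.8e-05). HB7, a homeobox factor that promotes PP2C expression, rose from 9.9, 9.02 and 7.41 CPM to 17.6, 24.4 and 12.1 CPM (2.04-fold, edgeR adjusted p = 0.00704). RAB18, another dehydrin used as an ABA marker, had 2.67, 0.85 and 1.76 CPM in DMSO and 1.48, 0.673 and 2.53 CPM in treated libraries, with full overlap (edgeR adjusted p = 0.842). The counts moved with the library left out, to 3 higher and 4 lower without DMSO replicate 1, 3 higher without DMSO replicate 2 and 4 lower without DMSO replicate 3. They were 4 higher and 8 lower with total-count scaling, and 4 higher and 9 lower with limma on either FPKM scale.

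Members of other PP2C clades were set beside the clade A genes. Of 21 such genes 13 rose, 1 fell and 7 did not pass, where 35.6% of all tested genes rose and 35.8% fell. Their median log2 fold change was 1.01, beside 0.64 for the 6 tested clade A genes. PP2C-D8 went from 24, 26.3 and 25.2 CPM to 130, 134 and 152 CPM (5.5-fold, edgeR adjusted p = 3.6e-09), and PLL2, of the POLTERGEIST-like group, from 4.95, 6.04 and 5.19 CPM to 42.2, 41.8 and 34.2 CPM (7.27-fold, edgeR adjusted p = 9.6e-09). PLL4 rose 4.04-fold and PIA1 3.42-fold. AP2C2 and AP2C3, relatives of the mitogen-activated protein kinase phosphatase AP2C1, rose 31.7-fold and 11.6-fold (edgeR adjusted p = 1.0e-06 and 3.9e-06) from under 0.6 CPM, and without DMSO replicate 2 the log2 fold change of AP2C2 was 5.70 in place of 4.99. On log2(FPKM + 1) the log2 fold changes of AP2C2 and AP2C3 were 2.67 and 1.59. AP2C2, AP2C3 and PLL3, which also rose, passed the filter only with their treated libraries counted, so their calls are a description. AP2C1 itself had a log2 fold change of 0.26 (edgeR adjusted p = 0.112, but 0.0466 without DMSO replicate 1). PLL1 was the 1 gene that fell (log2 fold change -0.85). PP2C-D5 and PP2C-D2 had log2 fold changes of -0.01 and 0.04 and did not pass (edgeR adjusted p = 0.938 and 0.724). Some PP2C genes outside clade A thus rose too, and the difference between clades was not tested.

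**Figure D5:**
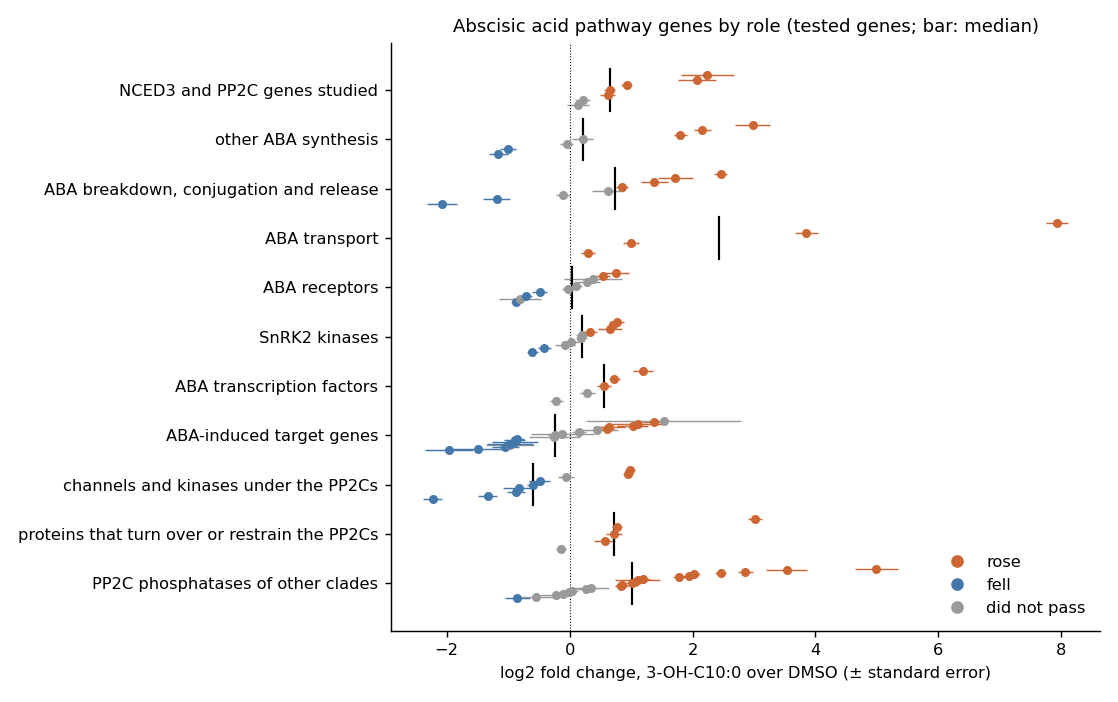
Log2 fold change of treated over DMSO seedlings (± SE) for each tested gene, grouped by role, with the median of each group as a vertical bar and colour for genes that rose, fell or did not pass. NCED3 and the tested PP2C genes lie between 0.14 and 2.24, the transport genes reach 7.93, and the receptors and ABA-induced genes spread on both sides of 0.

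A chosen list of transcription factors that act on NCED3 or PP2C genes held 5, of which 3 rose, 1 fell and 1 did not pass. The list is not complete, and HB7 was counted with the ABA-induced genes. Over all tested genes 35.6% rose and 35.8% fell. NAP, a senescence NAC factor that activates HAI1, rose from 4.56, 7.84 and 10.1 CPM to 44.8, 47.8 and 59.8 CPM (6.76-fold, edgeR adjusted p = 7.6e-05). ATAF1, a NAC factor that activates NCED3, rose from 27.1, 20.7 and 21.4 CPM to 57.5, 58.1 and 63.6 CPM (2.59-fold, edgeR adjusted p = 9.8e-07). MYB44, a repressor of PP2C genes, rose 1.2-fold (edgeR adjusted p = 0.00894). NGA1, which acts on NCED3 under drought, fell (log2 fold change -0.34, edgeR adjusted p = 0.041), a call lost in each fit that left out a library except that without DMSO replicate 3 (adjusted p between 0.0644 and 0.151), with RLE scaling (0.056) and with DESeq2 (0.0999). WRKY57 had a log2 fold change of 0.20 (edgeR adjusted p = 0.108).

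Of 5 genes for proteins that degrade or modify the PP2Cs, 4 rose at the transcript level and 1 did not pass, where 35.6% of all tested genes rose. With limma on either FPKM scale 3 rose and 1, EAR1, fell. RGLG5, a ubiquitin ligase for PP2CA, went from 9.85, 9.82 and 11.1 CPM to 86.8, 72.1 and 91.4 CPM (8.13-fold, edgeR adjusted p = 3.5e-09), and its relative RGLG1 rose 1.65-fold. PUB13 and PUB12, ubiquitin ligases for ABI1, rose 1.7-fold and 1.49-fold, the latter with an adjusted p of 0.0599 without treated replicate 3 and of 0.0581 and 0.0627 with limma on the FPKM scales. EAR1, which raises PP2C activity, had a log2 fold change of -0.14 (edgeR adjusted p = 0.158).

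Among 9 channels and kinases placed under the PP2Cs in ABA signalling, 6 were lower, 2 higher and 1 did not pass. Lower genes made up 35.8% of all those tested, and higher genes 35.6%. AKT2, a potassium channel bound by PP2CA, fell from 10.7, 8.64 and 10.6 CPM to 1.99, 2.08 and 2.3 CPM (log2 fold change -2.23, edgeR adjusted p = 3.9e-07, or -1.36 on log2(FPKM + 1)). GHR1, a receptor-like kinase that acts on the anion channel SLAC1, fell (log2 fold change -1.33, edgeR adjusted p = 1.8e-05), and SLAC1 fell (log2 fold change -0.83, edgeR adjusted p = 0.0146, but 0.0648 without DMSO replicate 1 and 0.0597 without treated replicate 1). CPK21 and CPK23, calcium-dependent kinases of the same channel, rose 1.93-fold and 1.97-fold. KAT1, a guard cell potassium channel, had a log2 fold change of -0.06 (edgeR adjusted p = 0.724). Without DMSO replicate 1 the count was 4 lower and 2 higher.

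Several of these genes belong to single cell types, and in whole seedlings fewer cells of a type and less RNA per cell cannot be told apart. Of 5 guard cell markers 3 fell, none rose and 2 did not pass, and their summed level was 672 to 752 CPM in DMSO and 466 to 548 CPM in treated libraries, most of it from TGG1. The count that fell was 2 without DMSO replicate 1 or treated replicate 1, and SLAC1 and KAT1 are in the channel list too. MYB60, a guard cell factor, fell from 9.06, 9.4 and 9.82 CPM to 3.21, 3.48 and 3.1 CPM (log2 fold change -1.53), whereas FAMA did not pass. Of 6 vascular markers 2 rose and 3 fell, with a summed level of 261 to 268 CPM in DMSO and 362 to 390 CPM in treated libraries. Most of that sum came from SUC2, with means of 177 CPM in DMSO and 299 CPM in treated libraries. SUC2 of the phloem rose 1.69-fold and XCP1 of the xylem fell (log2 fold change -1.41). Of 6 root markers 1 rose and 3 fell, with summed levels of 108 to 111 and 93.8 to 103 CPM. The count of vascular markers that rose was 1 without DMSO replicate 1 or treated replicate 2, and that of root markers was 0 without DMSO replicate 1, treated replicate 1 or treated replicate 2. None of the defining markers was at 0, and the part of these cells in the changes of NCED3, the PP2C genes and the channels was not tested.

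The genes most like NCED3 and HAI1 across the 6 libraries were found by the Euclidean distance between log2 CPM profiles centred on each gene's mean. For NCED3 they were ACD6 (distance 0.41), ASPGB1 (0.55) and PRA1.B5 (0.56), all of them also highest in treated replicate 3. ACD6 had 9.95, 7.6 and 5.7 CPM in DMSO and 22.9, 20.8 and 50.9 CPM in treated libraries. For HAI1 they were AT3G60700 (0.46), AT5G44565 (0.50) and CRK5 (0.53), and CRK5 went from 3.57, 3.73 and 2.36 CPM to 14.9, 17.3 and 11.4 CPM. The likeness rests on 6 libraries in 2 groups, so any gene with a similar fold and spread would be near.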

How the data were processed

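Total RNA prepared with TRIzol was assessed on a Bioanalyzer and read on a HiSeq2500, per the labels' protocols. No source used here states library strandedness. RSEM, StringTie 1.3.1, HISAT2 2.2.4, Bowtie2 2.2.8 and fastp 0.18.0 were used with build TAIR10, per the submitters' processing notes. Their order, and how reads matching several loci were treated, is not stated there. Estimated counts for each locus were deposited by the authors unnormalised, per the file headers. Of these values 3.62% were not whole, and all were rounded here. The FPKM values, scaled by the authors to gene length and depth, were used as deposited for comparing genes, for sums and for ratios.

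Counts were fitted with edgeR 4.0.16 in R 4.3.3: filterByExpr with a minimum count of 10 (19768 of 28259 loci kept), TMM scaling, and a robust quasi-likelihood fit of 3 treated against 3 DMSO libraries. Tests were two-sided, with Benjamini-Hochberg adjustment over all tested genes and a threshold of 0.05. A standard error is the absolute log2 fold change divided by the root of F, and CPM values are TMM-scaled. The common biological coefficient of variation was 11.3%. On simulated counts for these 2 groups, with 19783 genes fitted, the test called 99% of 100 genes changed 2-fold and 100% of 100 changed 4-fold, all with a mean over 2 CPM. The simulation gave every gene the same dispersion and changed few genes, whereas 71.4% of tested genes were called in the data. Sparser genes were not among those changed, so these shares do not carry over to the sparse members. Sums and ratios were compared by exact permutation (scipy 1.17.1). Alternatives were RLE and total-count scaling, no filter, DESeq2 1.42.0, limma 3.58.1 on log2(FPKM + 1) and log2(FPKM + 0.1), a replicate block, and each library left out. For sums and ratios they were CPM, TPM and a pseudocount of 1.

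Members and lists were chosen with earlier results of these data known. The rule named all 9 members, from each other list up to 4 passing genes with the smallest p and up to 2 that did not pass with the largest p, and the 3 nearest profiles of NCED3 and HAI1. Among the genes so named, PYL3, SNRK2.5, SNRK2.8 and AFP1, which did not pass, and several cell type markers were not described singly. ZEP, NCED2, NCED5, NCED6, NCED9, CYP707A2, CYP707A4, PYL5, PYL7, SNRK2.2, SNRK2.6, RD29A, RD29B, RD20, RD22, COR15A, HB7, AHG1, AP2C1, AP2C2, AP2C3, PLL1, PLL3 and MEK1 were named after their values were seen. Coordinates and promoters are those of TAIR10.1 from RefSeq, matched by locus code (26719 loci). Same-numbered libraries of the 2 groups had correlations of 0.03, -0.02 and 0.10, so the numbers were not taken as pairs.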

Additional observations from a re-analysis of the deposited data

How the results depend on the processing

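Under the 13 alternative fits the 7 tested members kept their calls: NCED3, ABI1, HAB1, HAB2 and HAI1 were higher and ABI2 and PP2CA did not pass. NCED3 and HAI1 passed the main filter only with their treated libraries counted, so their kept calls are a description. The count of members that rose was 5, or 6 where HAI2 was tested (no filter, and between 5 and 6 over the fits without 1 library, where HAI2 entered only through its treated libraries). None was lower under any fit. With the replicate number as a block 5 members rose, and over all genes 7063 were higher and 7088 lower, against 7036 and 7083 without it. The replicate block, whose pairing the data did not bear out, ended the call of RD22 (adjusted p = 0.0982 against 0.0465) and brought CYP707A3 (0.00967) and ABF3 (0.0482) past the threshold among the genes followed. Over the fits without 1 library, 6619 to 6920 genes were higher and 6532 to 6845 lower. Over the same fits the sign turned for RAB18 (log2 fold change -0.69 to 0.30, positive without DMSO replicate 1 or treated replicate 2), KAT1 (-0.12 to 0.05, positive without DMSO replicate 1), ABA4 (-0.16 to 0.03, positive without DMSO replicate 2) and PYL4 (-0.09 to 0.03, positive without DMSO replicate 1 or treated replicate 3). The HAB1 to HAB2 difference ranged from -0.16 to 0.08 and turned without treated replicate 1. None of these passed a test, and the causes were not tested. The HAI1 to HAI2 difference was 0.05 in CPM, 0.22 in TPM and 0.71 with a pseudocount of 1, against 0.35. HAI2 over HAI3 was 0.38 with a pseudocount of 1, against 1.82. With total-count scaling EAR1 fell (adjusted p = 0.0327). Without the filter 3 of the ABA-induced genes rose in place of 5, and 5 fell in place of 7. Depth limits what can be said of HAI2, HAI3, AHG1 and the NCED genes other than NCED3, which had at most a few counts in a DMSO library.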
